A study of Mus musculus with 6 samples.

Results

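Slc2a1, Pfkl and Pfkfb3, genes that govern how much glucose enters a cell and how fast it passes into glycolysis, were examined in mouse osteoclast precursors that received sRANKL on top of M-CSF or did not. All 3 were higher with sRANKL in each of 3 paired experiments, Pfkfb3 by 3.47-fold, Slc2a1 by 3.33-fold and Pfkl by 2.33-fold on average. They are 3 of the 522 genes that the deposited tables name. A gene is named in these tables only because its probe set is on the authors' list of changed genes, which was drawn up on the same arrays. The members were thus selected on the difference between the groups in these same intensities, and that difference is given below as a description. Calls and intervals from limma that are printed for the members are part of that description and test nothing about them.

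Glucose crosses the plasma membrane through facilitative carriers, of which GLUT1, encoded by Slc2a1, is the widespread form of growing and activated cells. Inside the cell, phosphofructokinase commits the sugar to glycolysis by phosphorylating fructose 6-phosphate, and Pfkl encodes its liver-type subunit. The most potent activator of that enzyme is fructose 2,6-bisphosphate, which is made and removed by bifunctional enzymes. Pfkfb3 encodes the form among them in which synthesis strongly outweighs removal. In macrophages a rise in glycolysis accompanies activation, and osteoclast formation is known to draw on both glycolysis and mitochondrial respiration.

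Expression was measured on 6 Affymetrix Mouse Gene 1.0 ST arrays from 3 independent experiments. In each experiment bone marrow of 3 wild-type SV129/BL6 mice, whose age the sample records do not give, was pooled and kept in 10 ng/ml M-CSF for 48 hours. Mononuclear precursors, an enriched and not a pure population, were then divided between 2 dishes, both with M-CSF at 20 ng/ml and 1 of them also with sRANKL at 200 ng/ml, purified from a pGEX-4T-1 construct. RNA was taken after 2 days. M-CSF is the survival and growth factor of the macrophage lineage, and RANKL is the cytokine that turns such precursors into osteoclasts. Every group thus received M-CSF, and the groups differ in sRANKL and whatever its preparation held, which cannot be told apart here. With 3 arrays per group, precision is set by their number.

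Of lists of cell type markers only named genes can be read. Named genes come from the authors' list of changed genes, so a marker that did not differ between the groups cannot be seen. The sums below describe changed markers and do not check which cells were present. Of 16 osteoclast markers 7 are named, among them Acp5, Ctsk and Mmp9. Their summed intensity was 5989 to 8121 in the sRANKL arrays and 919.6 to 1229.6 in the M-CSF alone arrays. Of 16 neutrophil markers 6 are named, with a summed intensity of 6237 to 9836 in the sRANKL arrays and 1527 to 2405 in the M-CSF alone arrays. They include the granule proteases Ctsg and Prtn3 and the peroxidase Mpo. The marker Ly6g and other defining neutrophil markers are not among the named genes and were not analysed here. The 2 named of 15 monocyte and macrophage markers, Apoe and Ccr2, summed to 2760.1 to 3938 in the sRANKL arrays and 14086 to 16592 in the M-CSF alone arrays. Other lists held few named genes. Ppbp, the 1 named of 8 erythroid and megakaryocyte markers, was at 2979.9 to 3795 in the sRANKL arrays and 554 to 1082 in the M-CSF alone arrays. Dcn, the 1 named of 7 stromal markers, was at 105 to 186 against 45.1 to 60.6. Of 9 dendritic cell markers 2 are named, Ccr7, which was higher with sRANKL, and Cd209a, which was lower. No B cell, T and NK cell, or mast cell and basophil marker is named. The part of these cell types in the differences of the 3 members was not tested. In bulk RNA fewer cells of a type and less RNA per cell cannot be told apart.

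The promoters of the 3 members, which were chosen from changed genes, are shown here 5′ to 3′ on the strand of the gene. They run from 250 bases before to 50 bases after the annotated start. The sequences are those of RefSeq on GRCm38.p6, in which all 3 were found, Pfkfb3 with 2 starts. Which of these starts the array signal of Pfkfb3 reports on was not determined. The windows are chr4:119108495-119108794 (plus strand) for Slc2a1, chr2:11553880-11554179 and chr2:11502041-11502340 (minus strand) for the first and second start of Pfkfb3, and chr10:78009758-78010057 (minus strand) for Pfkl. Capitals mark ACGTG on either strand, the usual form of the core of the hypoxia response element that HIF binds.
Slc2a1: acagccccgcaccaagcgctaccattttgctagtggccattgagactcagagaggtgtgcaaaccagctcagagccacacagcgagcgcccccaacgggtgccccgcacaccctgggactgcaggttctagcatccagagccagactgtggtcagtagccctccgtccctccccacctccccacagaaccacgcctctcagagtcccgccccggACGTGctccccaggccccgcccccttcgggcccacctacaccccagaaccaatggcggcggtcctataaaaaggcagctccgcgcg
Pfkfb3 start 1: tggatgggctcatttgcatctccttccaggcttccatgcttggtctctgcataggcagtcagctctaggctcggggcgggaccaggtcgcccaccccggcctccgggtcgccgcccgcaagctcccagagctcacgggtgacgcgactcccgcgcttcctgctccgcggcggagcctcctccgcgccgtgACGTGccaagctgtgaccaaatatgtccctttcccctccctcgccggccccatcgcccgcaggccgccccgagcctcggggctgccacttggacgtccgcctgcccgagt
Pfkfb3 start 2: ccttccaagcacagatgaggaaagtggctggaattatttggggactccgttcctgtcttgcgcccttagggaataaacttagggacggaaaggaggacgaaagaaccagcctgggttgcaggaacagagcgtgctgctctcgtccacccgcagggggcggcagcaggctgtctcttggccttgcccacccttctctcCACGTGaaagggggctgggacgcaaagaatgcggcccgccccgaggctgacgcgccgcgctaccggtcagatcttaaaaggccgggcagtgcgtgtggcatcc
Pfkl: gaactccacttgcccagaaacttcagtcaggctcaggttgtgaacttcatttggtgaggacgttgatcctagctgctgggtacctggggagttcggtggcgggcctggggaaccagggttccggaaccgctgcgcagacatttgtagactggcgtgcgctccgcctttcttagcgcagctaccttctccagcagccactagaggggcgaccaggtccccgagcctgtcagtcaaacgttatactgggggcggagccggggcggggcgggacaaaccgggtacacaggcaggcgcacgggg

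Slc2a1 held ACGTG at 36 bases before the start and the first start of Pfkfb3 at 60 bases before it. At the second start of Pfkfb3 the marked letters form CACGTG, the palindromic E-box bound by MYC and related factors, which begins 53 bases before the start and contains ACGTG on both strands. Pfkl held no ACGTG and has 1 match to GCGTG, the other form of the hypoxia core, at 99 bases before the start. GCGTG was also present at Slc2a1 and at the second start of Pfkfb3. Over all 32851 RefSeq promoter windows of the same length, searched on both strands, ACGTG was present in 19.6%, GCGTG in 32.4% and CACGTG in 7.15%. TGANTCA, the AP-1 site, was absent from the 4 windows and present in 7.81% of all windows. GGAAA, the core of the NFAT site, was at both starts of Pfkfb3 and in 61.3% of all windows. The 4 windows hold 61 to 69.7% G and C, and the shares over all windows were not matched for base composition. Whether a motif is more frequent in the members was thus not tested. A match is a description of letters in these windows and not of binding, which was not measured.

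**Figure D1:**
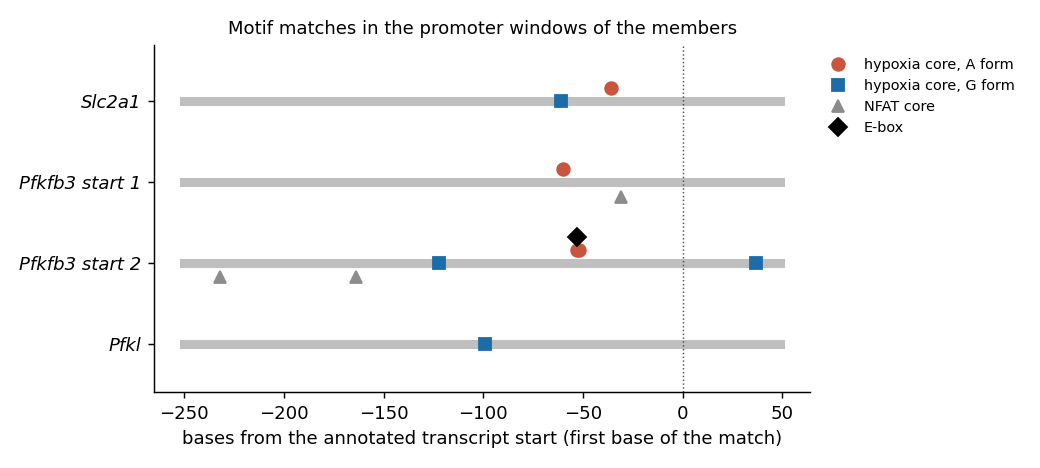
Motif matches are placed by their distance in bases from the annotated transcript start (x axis) in the 4 promoter windows of the members (grey bars). The A form of the hypoxia core lies 36 bases before the start of Slc2a1, and Pfkl has 1 match, of the G form.

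Slc2a1 was the glucose carrier named in the tables, the others on a list of 10 carriers not being named. Its probe set, 10507594, lies on the plus strand of chromosome 4, between 118781373 and 118809935 in the deposited list. The genome build of these list coordinates is not given in the sources used here. With sRANKL its intensity was 3139 in Experiment 1, 2708 in Experiment 2 and 2479 in Experiment 3. With M-CSF alone it was 765, 1015 and 733 in the same order. The lowest sRANKL array was thus 2.44-fold above the highest M-CSF alone array, and the groups did not overlap. On the log2 scale the means were 11.43 ± 0.17 (SD, n = 3) and 9.70 ± 0.25 (SD, n = 3), a difference of 1.74 (standard error 0.18). This is 3.33-fold, with a 95% confidence interval from limma of 2.48-fold to 4.49-fold. This interval and those below come from a fit that does not use the pairing of the dishes.

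Within experiments the difference of Slc2a1 was the most uneven of the 3 members. It was 4.10-fold in Experiment 1, 2.67-fold in Experiment 2 and 3.38-fold in Experiment 3, with an SD of 0.31 between the 3 log2 changes. Experiment 2 had both the highest level with M-CSF alone and the smallest change. Its M-CSF alone array was also bright in general, with the highest of the 3 values for 1578 of the 2859 rows, or 55.2%. After subtraction of each array's median, the log2 values of Slc2a1 in Experiments 1, 2 and 3 were 3.29, 2.87 and 2.82 with sRANKL and 1.42, 1.55 and 1.20 in the partner dishes. Experiment 2 thus kept both the highest M-CSF alone value and the smallest change.

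Pfkl was the named gene on a list of 21 glycolytic enzymes. Its probe set, 10370376, is placed on the minus strand of chromosome 10, between 77450016 and 77472494 in the list. With sRANKL the intensities were 1549, 1579 and 1530.4 in Experiments 1, 2 and 3, and in the partner dishes 613, 734 and 659. The sRANKL dishes were close to each other, the highest being 1.03 times the lowest, while the M-CSF alone dishes spread over 1.20-fold. All sRANKL values lay above all M-CSF alone values, by at least 2.09-fold. The sRANKL mean on the log2 scale was 10.60 ± 0.02 (SD, n = 3) and the other mean 9.38 ± 0.13 (SD, n = 3), a difference of 1.22 (standard error 0.14). This is 2.33-fold, with a 95% confidence interval from limma of 1.86-fold to 2.92-fold.

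The changes of Pfkl within Experiments 1, 2 and 3 were 2.53-fold, 2.15-fold and 2.32-fold. Experiment 2 had the highest M-CSF alone level and the smallest change. With each array's median subtracted, the log2 values of Pfkl were 2.27, 2.09 and 2.13 with sRANKL and 1.10, 1.08 and 1.05 in the partner dishes. The change was still smallest in Experiment 2, although its M-CSF alone value was no longer the highest. The liver-type subunit is 1 of 3 phosphofructokinase subunits. Pfkm and Pfkp, the muscle and platelet types, are not named in the tables and were not analysed here.

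Pfkfb3 was the named gene on a list of 10 genes of fructose 2,6-bisphosphate turnover and gluconeogenesis. Its probe set, 10480035, is placed on the minus strand of chromosome 2, between 11393062 and 11423694 in the list. With sRANKL its intensity was 757, 798 and 661 in Experiments 1, 2 and 3, and in the partner dishes 206, 216.5 and 215. The M-CSF alone dishes lay within 1.05-fold of each other and the sRANKL dishes within 1.21-fold, with the lowest sRANKL array 3.06-fold above the highest M-CSF alone array. On the deposited scale, in contrast to Pfkl, the wider spread was thus on the sRANKL side. The log2 means were 9.52 ± 0.14 (SD, n = 3) and 7.73 ± 0.04 (SD, n = 3), a difference of 1.80 (standard error 0.14). This is 3.47-fold, with a 95% confidence interval from limma of 2.76-fold to 4.37-fold. Within experiments Pfkfb3 was 3.68-fold, 3.69-fold and 3.08-fold higher with sRANKL, the smallest change being in Experiment 3 and not, as for Slc2a1 and Pfkl, in Experiment 2.

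**Figure D2:**
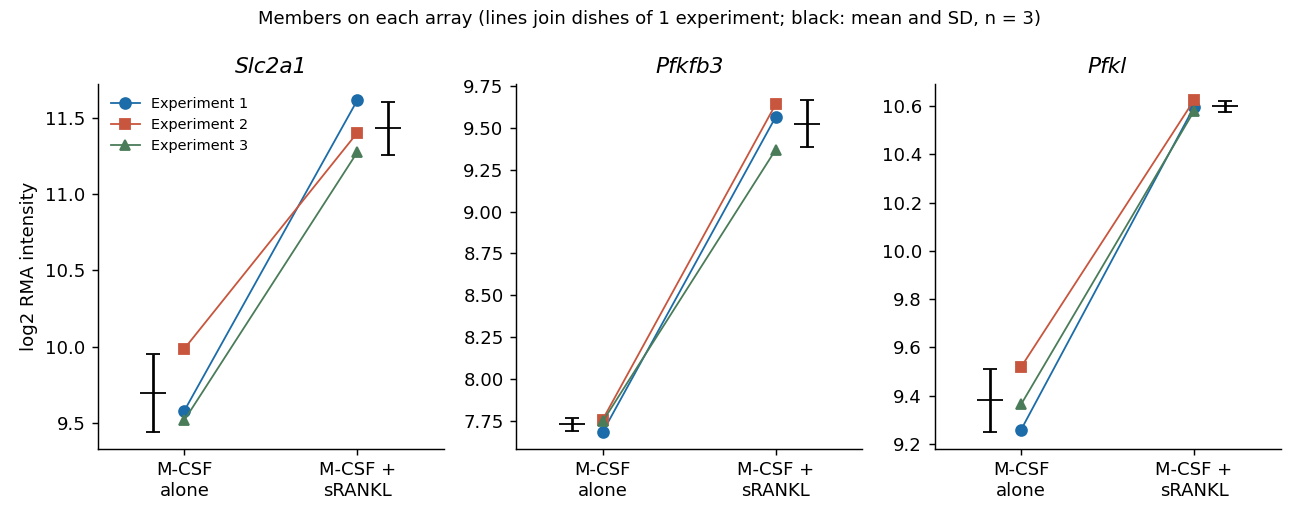
The log2 RMA intensity (y axes, a separate scale for each gene) is plotted for both dishes of each experiment, joined by lines, with the mean and SD of each group in black. On this deposited scale Pfkl values meet at the sRANKL side, with an SD of 0.02, and Pfkfb3 values at the M-CSF alone side, with an SD of 0.04. Under other scalings the side changed, for Pfkl with median subtraction and for Pfkfb3 after quantile normalization.

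Set side by side, Pfkfb3 and Slc2a1 changed more than Pfkl in each of the 3 experiments. The log2 change of Slc2a1 exceeded that of Pfkl by 0.52 ± 0.20 (SD, n = 3), and that of Pfkfb3 exceeded it by 0.58 ± 0.19 (SD, n = 3). Between Slc2a1 and Pfkfb3 the order was not fixed. The log2 change of Slc2a1 minus that of Pfkfb3 was 0.16 in Experiment 1, -0.47 in Experiment 2 and 0.14 in Experiment 3, so that the mean of -0.06 was smaller than its SD of 0.35 (n = 3). Intensities depend on each probe set, so the levels of the 3 genes were not set against each other.

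All 3 members were called higher by limma at an adjusted p under 0.05, as were 44.9% of the 2859 rows of the prefiltered table, with 78.2% of rows called in either direction. With a limit of 2-fold added, the calls were 3 of 3 and 16.1% of rows. All 3 were also at least 2-fold higher in every experiment, against 9.41% of rows, and had groups that did not overlap, with sRANKL higher, against 45.2% of rows. These counts follow from how the members were chosen. The rows called at least 2-fold split into 460 higher of 776. With each array centred on its median they split into 356 of 925, and after quantile normalization into 346 of 808. Centring shifted the median row by -0.13 and quantile normalization by -0.14 on the log2 scale. Slc2a1 was then 3.04-fold and 2.71-fold higher, Pfkfb3 3.17-fold and 3.14-fold, and Pfkl 2.13-fold and 1.85-fold. Pfkl was thus under 2-fold after quantile normalization. By log2 change, Pfkfb3 ranked 89, Slc2a1 96 and Pfkl 234 among the 522 named genes, of which 341 were higher and 181 lower.

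**Figure D3:**
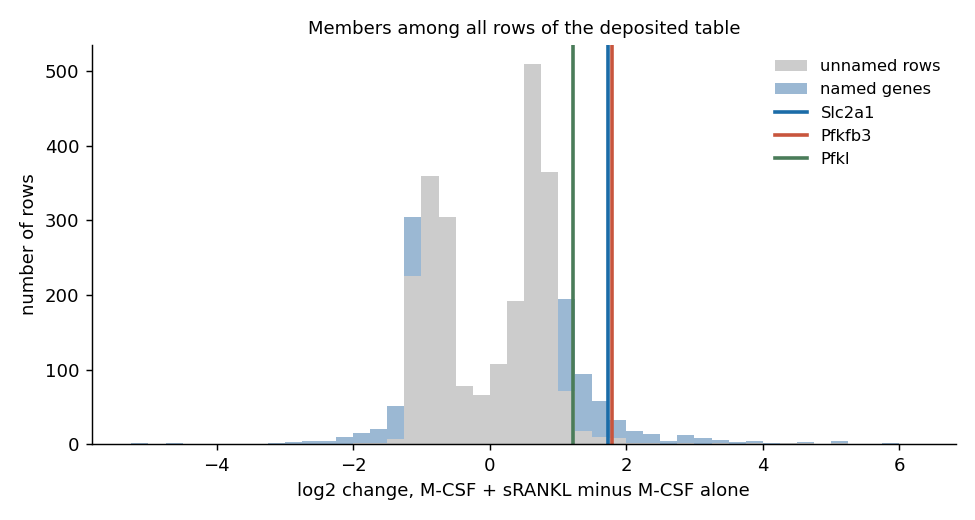
The log2 change (x axis) of all 2859 rows is shown as stacked counts (y axis) of unnamed rows and named genes, with vertical lines for the 3 members. Slc2a1 at 1.74 and Pfkfb3 at 1.80 lie close together, to the right of Pfkl at 1.22.

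On 6 lists of glucose metabolism and its regulators and 1 list of other genes induced in hypoxia, 127 genes in all, 11 are named, the 3 members and 8 others. Of these 8, the hypoxia list supplies 4, which are not genes of glucose metabolism. The other genes on the lists have no name in the tables and were not analysed here, among them the hexokinases, lactate dehydrogenases and every listed gene of the pentose phosphate, glycogen and hexosamine branches. Each of the 8 was called higher by limma (adjusted p under 0.05), at between 2.20-fold and 4.88-fold, and none lower. Over all rows 44.9% were called higher and 16.1% higher by at least 2-fold. That the 8 were called follows from the authors' list from which named genes come. That list holds both directions, with 341 of the 522 named genes higher and 181 lower. Their median log2 change was 1.40, and that of all rows was 0.42. The authors' list holds genes past a 2-fold limit, and the median log2 change of the 341 higher named genes was 1.39.

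The lactate carriers stand at the far end of the pathway from Slc2a1. Slc16a1 encodes MCT1, a carrier of lactate and pyruvate, and Slc16a3 encodes MCT4, which mainly exports lactate from glycolytic cells. In the sRANKL dishes of Experiments 1, 2 and 3 Slc16a1 had intensities of 527, 507 and 547 against 134, 210.3 and 170.1 in the partner dishes, which is 3.13-fold. As for Slc2a1, its M-CSF alone level was highest and its change smallest in Experiment 2, at 2.41-fold against 3.94-fold and 3.22-fold in Experiments 1 and 3. Slc16a3 had intensities of 1351, 1174 and 1242 against 548, 517 and 422, which is 2.54-fold. For both carriers the groups did not overlap, as for 45.2% of the 2859 rows with sRANKL higher. Both carriers are named only through the authors' list of changed genes.

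Among listed regulators 2 of 27 are named. Hif1a, the oxygen-regulated subunit of the transcription factor HIF-1 that drives many glycolytic genes, was 2.23-fold higher, with intensities of 1325, 1326 and 1450.4 against 517, 697 and 638. Its change was 2.56-fold, 1.90-fold and 2.27-fold in Experiments 1, 2 and 3, the one of the 11 genes that was under 2-fold in an experiment. Egln3, a prolyl hydroxylase that marks HIF subunits for breakdown and is itself induced by HIF, was 2.91-fold higher. Its intensities were 248, 202 and 247 against 98.0, 70.8 and 72.5. This was a dim signal, with a log2 mean over the 6 arrays of 7.08, the lowest of the 11 genes.

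Of 19 other genes known to be induced in hypoxia 4 are named, of which Hilpda, Ak4 and Ero1a are listed under older symbols. This list is not complete and was chosen with earlier results of these data known. Named genes outside it, higher or lower, were not examined as hypoxia genes. Hilpda, which encodes a lipid droplet protein that inhibits lipolysis, was 4.88-fold higher, with intensities of 1089, 1269 and 627 against 194.5, 226 and 170.0. Its sRANKL level in Experiment 3 was well below the other 2, and its change there was 3.69-fold against 5.60-fold and 5.62-fold. Ak4, a mitochondrial adenylate kinase, was 2.75-fold higher at the probe set with the higher mean and 2.99-fold at its second one. Both were dim, with log2 means of 7.66 and 6.34. P4ha1, a collagen prolyl hydroxylase subunit, was 2.44-fold and Ero1a, an oxidase of the endoplasmic reticulum, 2.20-fold higher. After quantile normalization 4 of the 11 genes were under 2-fold, namely Pfkl, Hif1a, P4ha1 and Ero1a. Of 22 genes of mitochondrial respiration 1 is named, Cycs, which encodes cytochrome c and was higher by 1.12 on the log2 scale.

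**Figure D4:**
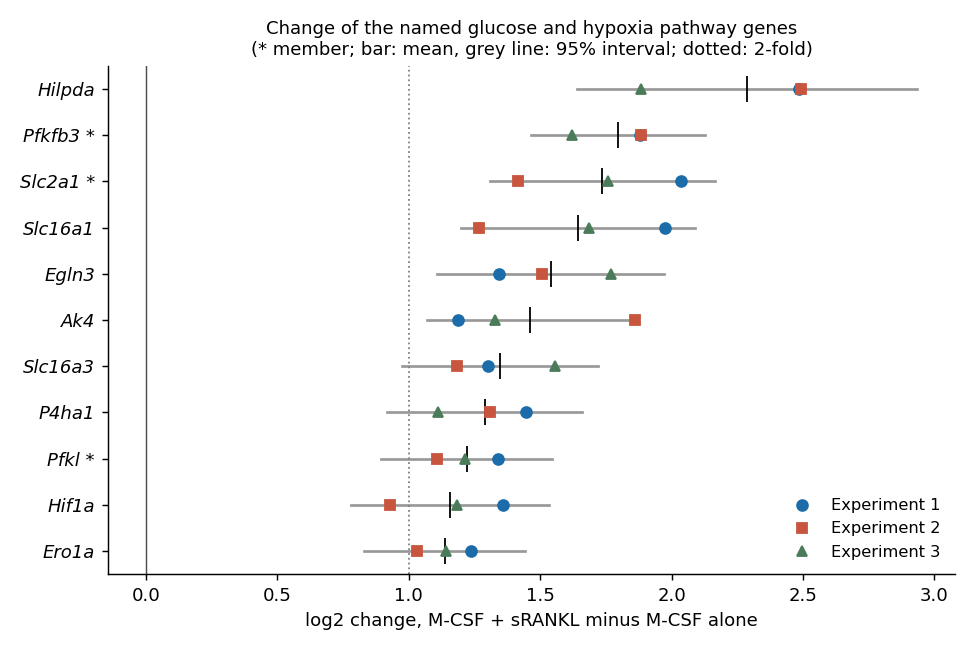
The log2 change (x axis) of the 11 named genes of these lists is plotted for each experiment as a symbol, with the mean as a black bar and the 95% confidence interval from limma as a grey line. Hif1a in Experiment 2, at 0.93, is the one symbol left of the dotted 2-fold line.

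Which experiment changed least was not the same across the group. Of the 11 genes, 6 had their smallest change in Experiment 2, 3 in Experiment 3 and 2 in Experiment 1. Over all 2859 rows the lowest signed log2 change fell in these experiments for 1227, 815 and 817 rows. In a row that was lower with sRANKL this is the largest fall, so these counts do not show which experiment changed least. The M-CSF alone array of Experiment 2 held the highest of the 3 values for 8 of the 11 genes, and for 55.2% of all rows. With both arrays of Experiment 1 left out, Slc2a1 was 3.00-fold, Pfkfb3 3.37-fold and Pfkl 2.24-fold higher. With the M-CSF alone array of Experiment 2 left out, they were 3.69-fold, 3.50-fold and 2.44-fold higher.

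**Figure D5:**
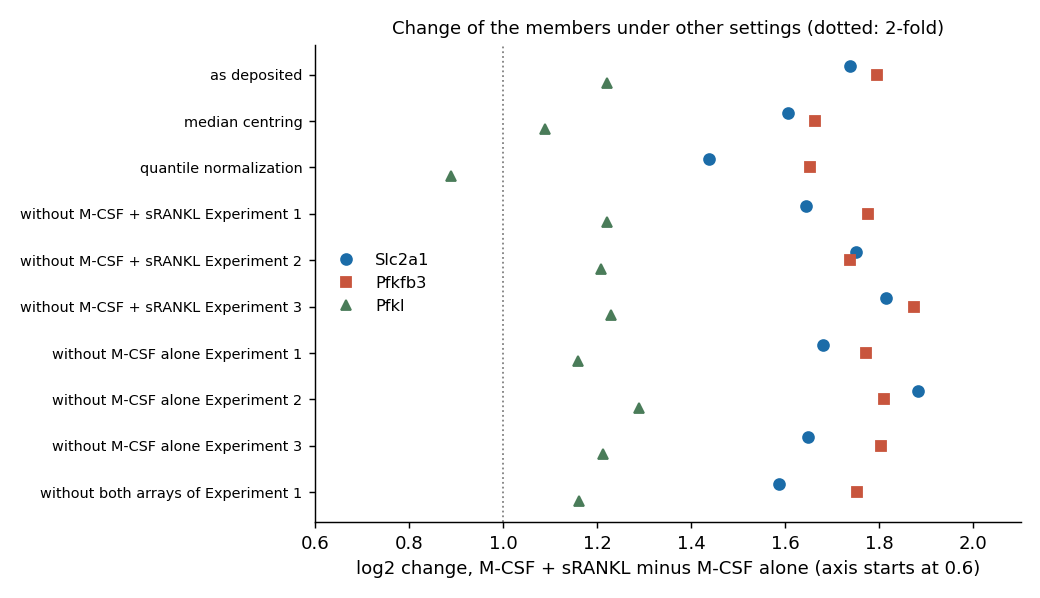
The log2 change of the 3 members (x axis, from 0.6) is shown as deposited, under both other scalings and without single arrays or Experiment 1. Pfkl lies left of Slc2a1 and Pfkfb3 in every setting plotted, at 1.22 as deposited and at 0.89 after quantile normalization.

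The named genes with the most similar course over the 6 arrays were found for each member. Log2 values were centred on each gene's mean and the root mean square difference was taken over the 6 arrays, a measure that the group difference dominates. For Slc2a1 these were Acsl1, a long-chain acyl-CoA synthetase, at 0.12, and the nucleolar genes Nolc1 and Nop56 at 0.13 and 0.15. For Pfkfb3 they were F10, coagulation factor X, at 0.10, Sod2, the mitochondrial superoxide dismutase, at 0.11, and Glrx, a glutaredoxin, at 0.12. For Pfkl they were the cytokine receptor kinase Jak2, Ero1a and Sinhcaf, a component of a histone deacetylase complex, each at 0.06. Among the 521 other named genes Pfkfb3 ranked 10 in likeness to Slc2a1, and Slc16a1 ranked 13. Seen from Pfkl, Ero1a ranked 2, Hif1a 17 and P4ha1 20, while Slc2a1 ranked 210 and Pfkfb3 220. All these genes share the same 6 arrays, and the ranks describe them without a test.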

How the data were processed

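The authors processed the scans with RMA in R, per the labels, and deposited the intensities of each array on a linear scale. The table holds 2890 probe sets, prefiltered by rules not given in the sources used here. Start and stop coordinates (other values) and symbols come from the authors' deposited list of 656 probe sets. Its means, fold changes and p-values were not used. Of 553 listed symbols 547 were found by Entrez number in a GRCm38.p6 table and 62 were updated. The probe set with the highest mean was kept per gene, leaving 2859 rows. Log2 intensities were fitted with limma 3.58.1 in R 4.3.3 (lmFit, eBayes) with no block term. P-values were adjusted over all rows by the Benjamini-Hochberg method at a threshold of 0.05. The fit was tried on simulated data with independent noise on each array, which does not cover the pairing of the dishes. Summaries used Python 3.11.15 with numpy 2.4.6, pandas 2.3.3 and matplotlib 3.10.9.

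Partner dishes came from 1 pool, so the experiment number pairs them. Deviations from group means correlated at 0.605, 0.564 and 0.645 within experiments. Members, lists and the genes to be named (members, named genes of the pathway and hypoxia lists and the 3 nearest in pattern) were chosen with earlier results of these data known. Alternatives were blocks, limma-trend, other scalings, filters at log2 intensities of 7 and 8, probe set means, arithmetic means, the methods' t-test and left-out arrays. Leaving out Experiment 1 and counting identical rows once were chosen after seeing the data. The sample records and the methods differ on whether the density gradient came before or after the 48 hours in M-CSF.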

Additional observations from a re-analysis of the deposited data

How the results depend on the processing

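The 3 members and 16 other named genes were higher with sRANKL in every alternative run. When 1 array was left out, the log2 change of Slc2a1 was between 1.64 and 1.88, that of Pfkfb3 between 1.74 and 1.87, and that of Pfkl between 1.16 and 1.29, while 1864 to 2348 rows were called changed and 713 to 999 at least 2-fold. The replicate block left the changes of the members as they were and gave 2613 called rows against 2235, and 877 against 776 at least 2-fold. Of the members' values in the other alternatives, those that moved by more than the SD between experiments were Pfkl at 1.09 with median centring and 0.89 after quantile normalization. Among the 1653 rows whose log2 intensity averaged 8 or more, 1372 were called and 442 at least 2-fold, fewer rows having been tested. The methods' t-test called 2044 rows unadjusted and 1913 after Benjamini-Hochberg adjustment. Among 16 other named genes 16 of 238 values moved by more than the SD between experiments, most of them after quantile normalization.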
